A study of Homo sapiens with 16 samples.

Results

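TPX2, DLGAP5 and HMMR, together with PRC1, NUSAP1, ASPM, PSRC1, CKAP2, PRR11 and ANLN, encode proteins of the mitotic spindle and of cytokinesis that are not kinesins. These 10 genes were taken by symbol after the Ensembl identifiers of both count tables had been matched to gene names. All 10 were found among the 60605 identifiers of each table. Their transcription was followed by PRO-seq, which extends and labels nascent RNA in isolated nuclei and so reads out polymerases engaged on a gene. The cells were LNCaP, a prostate cancer line of human origin that is sensitive to androgens. The 16 libraries came in 2 batches. Batch 1 held mock-treated cells and cells given 6 Gy of ionizing radiation (IR), with 4 libraries each, namely libraries t1 and t2 under replicate numbers 1 and 2. What t1 and t2 mean is not explained in the labels, and their counts were summed to give 1 replicate. Batch 2 held 4 groups of 2 replicates, numbered 3 and 4. Its cells received the DMSO vehicle for 90 min, or 10 µM enzalutamide, an antiandrogen drug, for 90 min, or either of these with 6 Gy given after 30 min and collection 60 min later. The labels do not say whether the mock cells of batch 1 received DMSO, nor how long after IR batch 1 was collected. Comparisons were made between irradiated and unirradiated cells in 3 settings that share no samples (batch 1, vehicle, enzalutamide) and between enzalutamide and vehicle within batch 2.

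As background, the spindle is built from microtubules that grow at the poles, around chromosomes and from other microtubules. TPX2 activates the kinase Aurora A and helps microtubules form near chromosomes, DLGAP5 (also called HURP) stabilises the fibres that hold kinetochores, and HMMR is a microtubule-binding protein that helps to position the spindle. Later in mitosis PRC1 bundles the antiparallel microtubules of the central spindle, and ANLN links actin, myosin and septins in the contractile ring. Genes of this kind are transcribed mainly in the late part of the cell cycle. They are repressed in quiescent and p53-arrested cells by the DREAM complex and driven in cycling cells by B-MYB and FOXM1, which act through a promoter element called the cell cycle genes homology region (CHR), often with CCAAT boxes bound by NF-Y. Nothing in that background was measured here apart from transcription.

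Libraries of batch 1 held 3438642 to 9363458 counts (8022989 to 16851473 after summing), and those of batch 2 held 10494563 to 19905824. Genes that define the labelled line were transcribed. Across the 12 samples, STEAP2 stood at 370 to 687 counts per 1000000 of the scaled library (CPM) and FOLH1 at 969 to 1388 CPM, whereas the markers of basal cells, fibroblasts, endothelium and leukocytes stayed at or below 10.8 CPM, apart from CD68 at 45.1 to 64.7 CPM. KLK3 was the most variable of the luminal markers, at 5.09 to 184 CPM. Replicates are separate samples by their numbers, but nothing says that they came from separate cultures, so p-values measure the spread between these samples, which may be technical.

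The promoters of most of these genes show the letters of the elements named above, and some are printed so that genes with and without them can be compared. The RefSeq table of GRCh38.p14 holds a window of 300 bases (250 before to 50 after the start) for 9 of the 10 genes, TPX2 being the gene without one. The windows were searched on both strands for TTTGAA and TTCGAA (the CHR letters), CCAAT (on the other strand ATTGG) and GGGCGG (the GC box). The CHR letters were found in 8 of 9 windows, against 16.4% of all 35116 windows in the table. CCAAT was found in 7 of 9, against 34.6% of all windows. Both were found in 7 of 9, against 6.38% of all windows. GGGCGG was found in 7 of 9, against 45.0%. A match of letters is a description of the sequence and no measurement of binding, and the genes were not drawn at random.

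The following stretches run from 130 bases before to 20 bases after the start, 5′ to 3′ on the strand of the gene, with the CHR letters and CCAAT in capitals. DLGAP5, HMMR, PRR11 and PSRC1 are shown because they fell most after IR, PRC1 because it carries the plainest pair of elements, and ANLN and CKAP2 because they fell least. They lie at chr14:55191566-55191715 (minus strand), chr5:163460502-163460651 (plus strand), chr17:59155616-59155765 (plus strand), chr1:109283126-109283275 (minus strand), chr15:90994516-90994665 (minus strand), chr7:36389732-36389881 (plus strand) and chr13:52455858-52456007 (plus strand).
DLGAP5: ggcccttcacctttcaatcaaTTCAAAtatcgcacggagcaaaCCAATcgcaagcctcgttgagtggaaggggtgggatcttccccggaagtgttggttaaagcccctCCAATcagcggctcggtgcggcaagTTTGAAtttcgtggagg
HMMR: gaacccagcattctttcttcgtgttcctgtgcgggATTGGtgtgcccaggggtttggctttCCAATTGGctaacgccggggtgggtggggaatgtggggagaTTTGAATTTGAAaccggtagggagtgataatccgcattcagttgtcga
PRR11: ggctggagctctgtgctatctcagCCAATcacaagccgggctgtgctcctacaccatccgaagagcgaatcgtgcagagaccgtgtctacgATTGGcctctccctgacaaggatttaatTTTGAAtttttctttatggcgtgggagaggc
PSRC1: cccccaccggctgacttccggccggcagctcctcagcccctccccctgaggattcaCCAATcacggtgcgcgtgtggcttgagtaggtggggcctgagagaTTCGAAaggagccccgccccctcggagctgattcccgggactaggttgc
PRC1: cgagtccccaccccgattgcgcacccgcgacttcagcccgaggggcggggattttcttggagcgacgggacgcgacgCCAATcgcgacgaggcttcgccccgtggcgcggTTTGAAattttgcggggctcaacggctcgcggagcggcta
ANLN: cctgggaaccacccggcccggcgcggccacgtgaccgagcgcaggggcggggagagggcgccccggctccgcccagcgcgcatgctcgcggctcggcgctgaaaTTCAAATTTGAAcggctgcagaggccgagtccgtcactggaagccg
CKAP2: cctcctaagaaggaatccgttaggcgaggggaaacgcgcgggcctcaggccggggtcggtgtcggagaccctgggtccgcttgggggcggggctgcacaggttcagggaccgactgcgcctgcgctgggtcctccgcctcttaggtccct

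In PRC1, TTTGAA began 20 bases before the start and CCAAT 53 bases before it. HMMR carried TTTGAA back to back, at 28 and 22 bases before the start. PSRC1 was the single gene with the TTCGAA form, 29 bases before the start, a form found in 1.45% of all windows. In PRR11, TTTGAA began 11 bases before the start. The CHR letters of DLGAP5 next to the start lay at position 4 after it, with a further copy on the other strand 109 bases before it. Another copy lay 138 bases before it, outside the printed stretch. Among genes not printed, the CHR letters of NUSAP1 lay at position 14 after the start. Those of ASPM lay on the other strand, 113 bases before the start. ANLN carried TTTGAA at 20 bases before the start, next to a copy on the other strand, but no CCAAT in the window. The window of CKAP2 held neither the CHR letters nor CCAAT, but it is placed around a start that lies 510 bases inside the annotated gene. The annotated start of CKAP2 lies outside that window and was not searched, so whether the gene lacks the elements there is not known. The 2 genes without the pair of elements in the window, ANLN and CKAP2, were also the 2 with the smallest falls after IR in each of the 3 settings. With 9 windows this is a description, and the relation was not tested.

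After IR, transcription of most or all of these genes fell in each setting. In batch 1 all 10 passed the test and all were lower, where 0.819% of the 25889 genes tested passed in that direction (edgeR's quasi-likelihood test, Benjamini-Hochberg adjusted p under 0.05 over all genes tested). With vehicle 8 of 10 passed, where 0.353% of 28651 genes did. With enzalutamide 9 of 10 passed, where 0.293% did. Fitted over batch 1 and the vehicle samples together, with batch as a covariate, all 10 passed, where 1.66% of 29195 genes did. The median log2 fold change of the 10 was -0.98 in batch 1, -0.79 with vehicle and -0.76 with enzalutamide, and that of all genes tested was -0.0021, -0.0057 and -0.014. The 2 irradiated samples lay below the 2 unirradiated ones for 10 of 10 genes in each of the 3 settings, where 20.0%, 19.8% and 16.4% of all genes did so. In bulk libraries, fewer cells in the phases that transcribe these genes and less transcription per cell cannot be told apart.

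**Figure D1:**
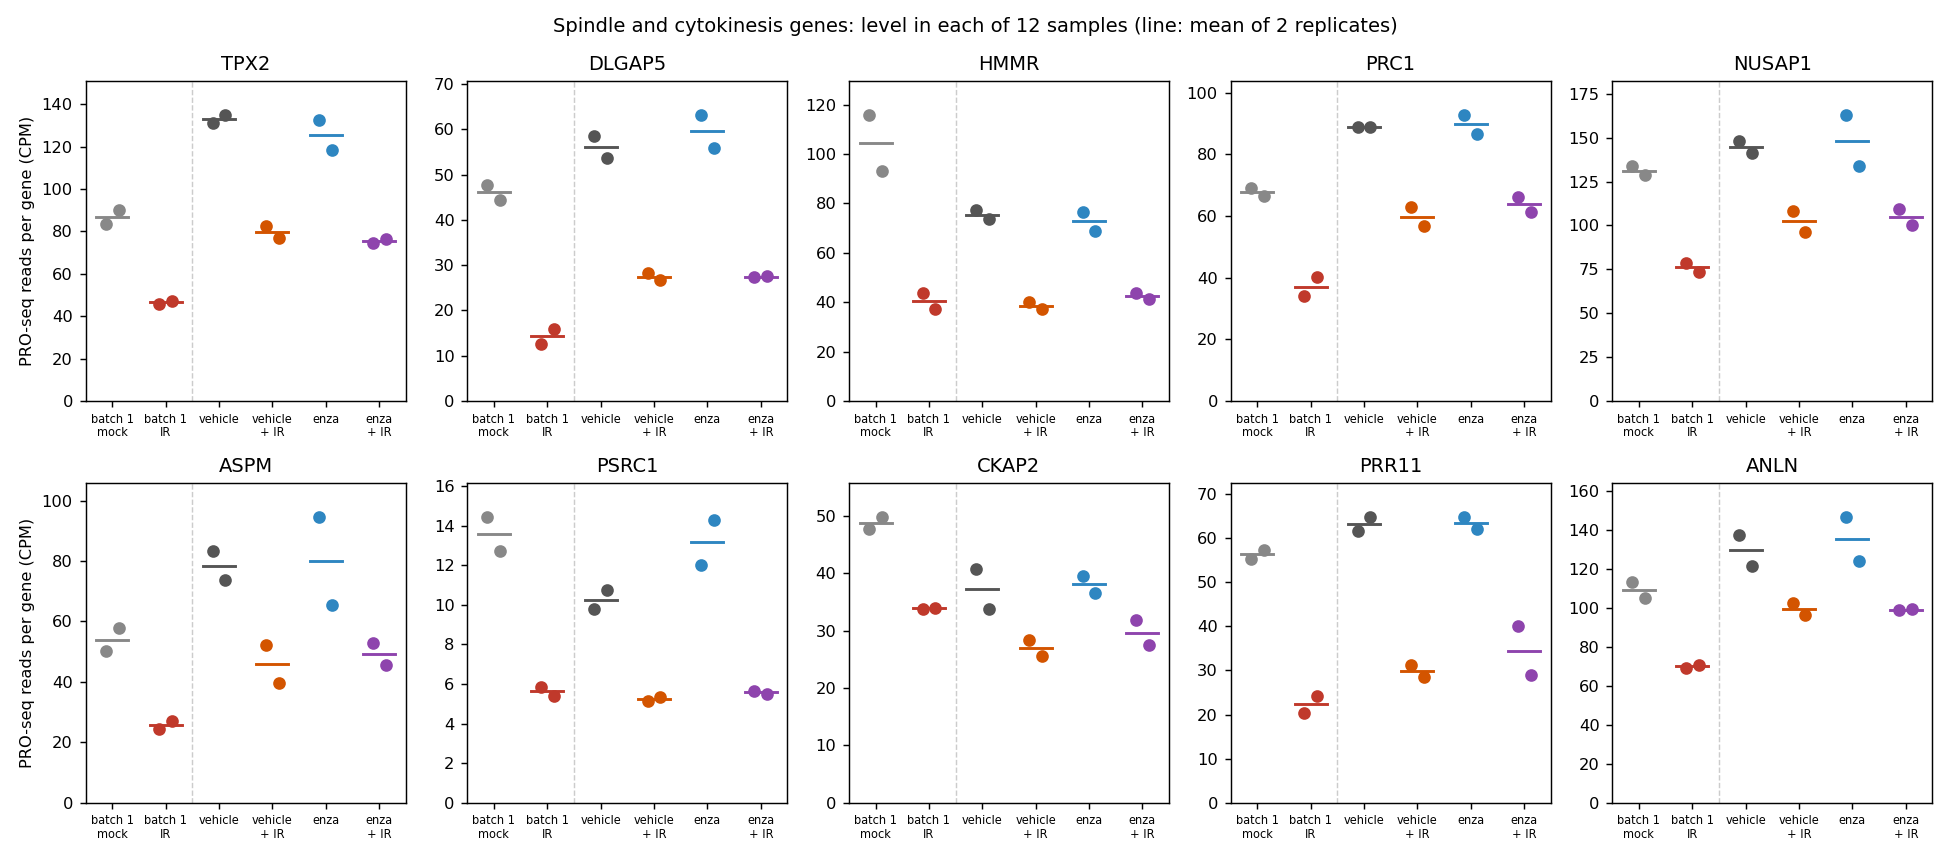
Level of each of the 10 genes in each of 12 samples, in PRO-seq counts relative to library size (CPM, vertical axes from 0, a scale of its own for each gene), with a line at the mean of 2 replicates and a dashed line between the batches. For every gene the irradiated pair lies below the unirradiated pair of the same setting, and DLGAP5 goes from 47.8 and 44.3 to 12.6 and 15.9 CPM in batch 1.

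Among the proteins that build the spindle around chromosomes and kinetochores, DLGAP5 (chr14:55148135-55191585, minus strand) had the largest fall in batch 1. It stood at 47.8 and 44.3 CPM in the mock samples and at 12.6 and 15.9 CPM after IR. With vehicle it stood at 58.5 and 53.6 CPM, and at 28.3 and 26.7 CPM after IR. With enzalutamide the values were 63.1 and 56.0 CPM, and 27.3 and 27.6 CPM after IR. All 6 irradiated samples thus lay below all 6 others. The fall amounted to 68.7% in batch 1 (log2 fold change -1.68, SE 0.13, edgeR adjusted p = 1.13e-05), to 52.2% with vehicle (-1.06, SE 0.10, 4.55e-05) and to 55.1% with enzalutamide (-1.15, SE 0.10, 2.54e-05).

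HMMR (chr5:163460632-163491941, plus strand) stood at 116 and 93.3 CPM in the mock samples of batch 1 and at 43.6 and 37.3 CPM after IR. In batch 2 it went from 77.3 and 73.6 CPM to 40.1 and 37.2 CPM with vehicle, and from 76.7 and 69.0 CPM to 43.7 and 41.5 CPM with enzalutamide. The 6 irradiated samples of HMMR thus lay close together, whereas the unirradiated ones of batch 1 were above those of batch 2. The log2 fold changes were -1.37 (SE 0.13), -1.0 (SE 0.09) and -0.81 (SE 0.09), with edgeR adjusted p-values of 4.35e-05, 4.18e-05 and 0.000307. TPX2 (chr20:31739290-31801800) stood at 83.5 and 90.0 CPM and, after IR, at 45.8 and 47.3 CPM in batch 1. With vehicle it stood at 131 and 135 CPM before and 82.5 and 77.0 CPM after, and with enzalutamide at 132 and 118 CPM before and 74.5 and 76.3 CPM after. The irradiated samples of batch 2 reached almost to the mock samples of batch 1 (82.5 against 83.5 CPM), since TPX2 was higher throughout batch 2. Its fall was nearly the same in the 3 settings, at 46.3%, 41.6% and 41.3% (edgeR adjusted p between 0.000191 and 0.000261).

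Of the genes for proteins that bind spindle microtubules or poles, PSRC1 (chr1:109279556-109283145, minus strand), a regulator of microtubule plus ends, is the shortest gene and had the fewest reads. It stood at 14.4 and 12.7 CPM in mock samples and 5.84 and 5.41 CPM after IR in batch 1. In batch 2 it went from 9.79 and 10.7 CPM to 5.13 and 5.36 CPM with vehicle, and from 12 and 14.3 CPM to 5.67 and 5.49 CPM with enzalutamide. All 6 irradiated samples lay between 5.13 and 5.84 CPM. Its log2 fold changes were -1.27 (SE 0.18), -1.01 (SE 0.17) and -1.26 (SE 0.17), and its SE was the largest of the 10 in each setting. ASPM (chr1:197084127-197146669, minus strand), which acts at spindle poles, had replicates far apart in batch 2. It stood at 83.3 and 73.7 CPM with vehicle and 52.1 and 39.7 CPM after IR, and at 94.6 and 65.5 CPM with enzalutamide and 52.7 and 45.5 CPM after IR. The fall was 42.9% with vehicle (edgeR adjusted p = 0.0198) and 40.3% with enzalutamide (0.0393). In batch 1 it went from 50.2 and 57.7 CPM to 24.5 and 27.2 CPM, a fall of 52.0%.

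NUSAP1 (chr15:41332881-41381046, plus strand), which links microtubules to chromatin, stood at 129 to 163 CPM in the 6 unirradiated samples and at 73.5 to 109 CPM in the 6 irradiated ones. Its fall was 41.9% in batch 1 and 31.0% in each setting of batch 2. CKAP2 (chr13:52455478-52476627, plus strand), a microtubule stabiliser, had the smallest fall in batch 1 and with enzalutamide. It went from 47.7 and 49.8 CPM to 33.8 and 33.9 CPM in batch 1, a fall of 30.4% (edgeR adjusted p = 0.0151). With vehicle the values were 40.7 and 33.8 CPM against 28.3 and 25.5 CPM after IR. With enzalutamide they were 39.6 and 36.5 CPM against 31.8 and 27.5 CPM. The groups did not overlap, but the log2 fold changes of -0.50 and -0.40 had adjusted p-values of 0.0822 and 0.269. With the replicate number as a block, which pairs same-numbered samples, both passed (0.00086 and 0.0141).

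Among the genes of the central spindle and the contractile ring, PRC1 (chr15:90966040-90994535, minus strand) had the tightest vehicle replicates, at 89.0 and 88.9 CPM. After IR these became 62.8 and 56.8 CPM, and with enzalutamide 92.6 and 86.7 CPM became 66.2 and 61.4 CPM. In batch 1 PRC1 went from 69.0 and 66.5 CPM to 34.1 and 40.1 CPM. The fall was 45.0% in batch 1, 34.5% with vehicle and 30.6% with enzalutamide, and passed the test in each. ANLN (chr7:36389862-36453791, plus strand) stood at 113 and 105 CPM against 69.3 and 70.4 CPM after IR in batch 1. With vehicle it stood at 137 and 122 CPM against 103 and 96.4 CPM, and with enzalutamide at 147 and 124 CPM against 98.7 and 99.5 CPM. The fall of 25.1% with vehicle did not pass (edgeR adjusted p = 0.0579, or 0.000484 with the replicate block), whereas those of 35.9% in batch 1 (0.00409) and 28.5% with enzalutamide (0.0262) did. PRR11 (chr17:59155746-59206709, plus strand), a proline-rich protein linked to cell cycle progression, stood at 55.3 and 57.4 CPM against 20.4 and 24.2 CPM in batch 1. It stood at 61.7 and 64.8 CPM against 31.1 and 28.6 CPM with vehicle, and at 64.8 and 62.1 CPM against 40.0 and 29.0 CPM with enzalutamide. PRR11 had the largest fall of the 10 with vehicle, at 54.0% (log2 fold change -1.12, SE 0.13, edgeR adjusted p = 0.000371).

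**Figure D2:**
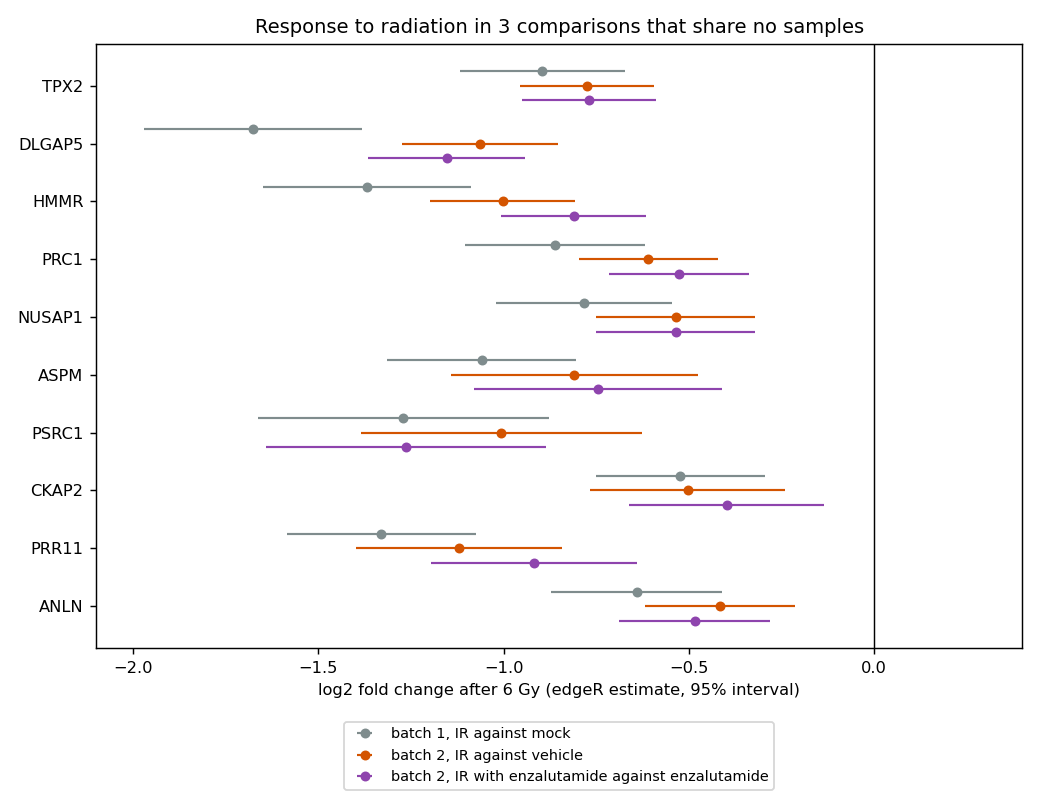
Log2 fold change after 6 Gy for each gene (points, edgeR estimates; bars, 95% intervals) in batch 1, with vehicle and with enzalutamide. Every point lies below 0, from -1.68 for DLGAP5 in batch 1 to -0.40 for CKAP2 with enzalutamide.

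Calls in a single setting rested on few samples. TPX2, DLGAP5, HMMR and PRR11 passed in each of the 3 settings under every alternative tried, including each sample left out in turn. Some alternatives called many more genes over all tested, so passing in them says less. In batch 1, t2 alone called 9800 genes, t1 alone 3995 and the replicate block 2332, against 731 in the main fit. With vehicle, NUSAP1 no longer passed without any one of the 4 samples compared (adjusted p 0.0697 to 0.204). ASPM no longer passed without vehicle replicate 3 (0.191) or IR replicate 4 (0.245), PSRC1 without vehicle replicate 4 (0.102) or either IR sample (0.123 and 0.0749), and PRC1 without IR replicate 4 (0.0525). With enzalutamide, the calls of PRC1 were lost without either irradiated sample (0.0797 and 0.206). Those of NUSAP1, ASPM and ANLN were lost without either irradiated sample or without enzalutamide replicate 3 (0.0972 to 0.477), and that of ANLN also without vehicle with IR replicate 3 (0.051) or 4 (0.058). In batch 1 the call of CKAP2 was lost without either irradiated sample (0.0734 and 0.0997). In the fit over both batches the log2 fold changes lay between -1.35 for DLGAP5 (SE 0.11, adjusted p = 5.55e-08) and -0.52 for CKAP2 (SE 0.08, adjusted p = 0.000204). There all 10 also passed under each of 15 alternatives, with values from -1.47 for DLGAP5 to -0.44 for ANLN and CKAP2.

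The order of the falls was much the same in the 3 settings. Ranked from the largest fall, DLGAP5 was at place 1 or 2, PRR11 between 1 and 3, PSRC1 between 1 and 4, and HMMR between 2 and 4. TPX2 and ASPM were at 5 or 6, PRC1 and NUSAP1 at 7 or 8, and ANLN and CKAP2 at 9 or 10. Across the 10 genes, Spearman's rho was 0.93 between batch 1 and vehicle, 0.89 between batch 1 and enzalutamide and 0.92 between vehicle and enzalutamide (Pearson's r 0.93, 0.87 and 0.88). These comparisons share no samples, but genes are not independent replicates.

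Enzalutamide gave no call among these genes. Averaged over irradiated and unirradiated samples, 0 of 10 passed, where 0.0628% of 28651 genes did. At an unadjusted p under 0.05, which 6.21% of genes had, the count was also 0 of 10, and DESeq2 gave 0 of 10 as well. The log2 fold changes lay between -0.09 for TPX2 and 0.24 for PSRC1, with a median of 0.05. The 95% intervals of all 10 lay within 1.5-fold in either direction, the outer bounds being -0.20 and 0.49. Without IR the values were -0.09 to 0.34 and with IR -0.08 to 0.20, and 0 of 10 passed in each, where 0.0105% of genes did. None had an unadjusted p under 0.05 either, a level that 2.56% of genes reached without IR and 3.0% with it. PSRC1 was the highest without IR, at 9.79 and 10.7 CPM with vehicle and 12 and 14.3 CPM with enzalutamide (log2 fold change 0.34, SE 0.16, edgeR adjusted p = 1.0, unadjusted p = 0.0516).

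**Figure D3:**
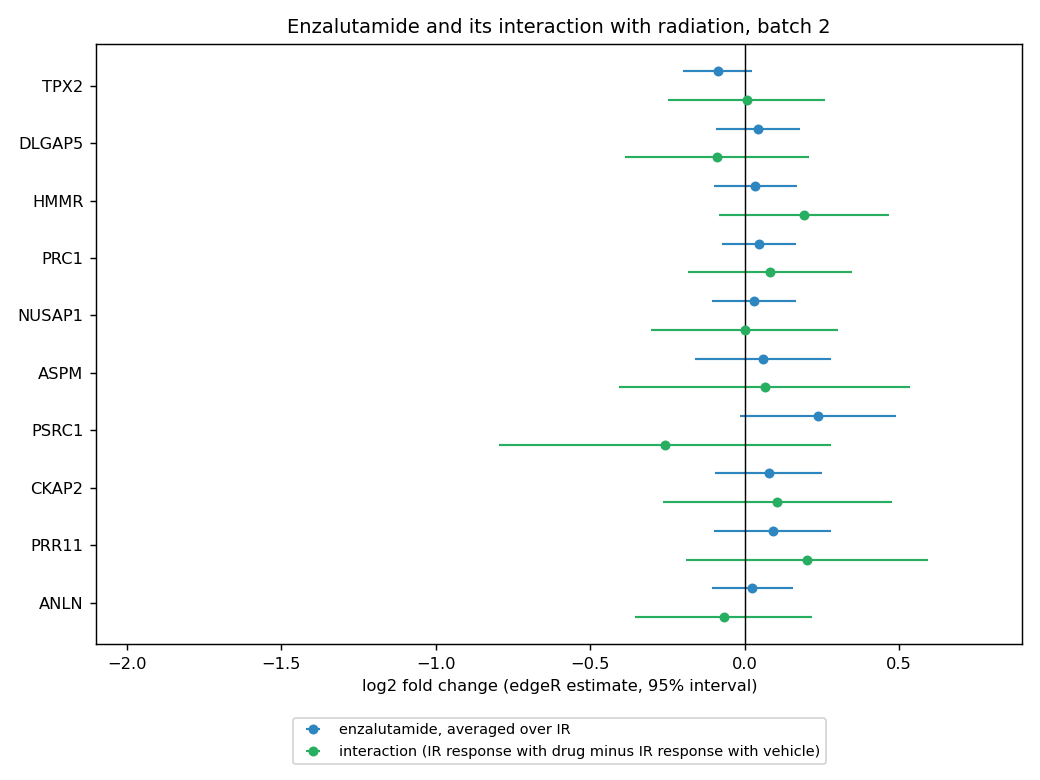
Log2 fold change with enzalutamide averaged over IR, and the interaction (IR response with enzalutamide minus IR response with vehicle), for each gene, with 95% intervals. Every interval includes 0, and the widest, the interaction of PSRC1, runs from -0.80 to 0.28.

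The response to IR was not shown to differ between vehicle and enzalutamide. For the interaction 0 of 10 passed, and 0 of 28651 genes did in edgeR and 0 in DESeq2, with 343 genes (1.2%) and none of the 10 at an unadjusted p under 0.05 in edgeR. The estimates lay between -0.26 for PSRC1 and 0.20 for PRR11, with SE of 0.12 to 0.25. For 8 of 10 genes the interval lay within 1.5-fold, and those of PSRC1 and PRR11 reached beyond it, so their intervals include differences of that size.

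With all libraries, the estimated falls were larger in batch 1 than with vehicle in batch 2 for all 10 genes, but the difference passed for 0 of 10, where 0.106% of 29195 genes passed. Coded as batch 1 minus batch 2, it lay between -0.64 for DLGAP5 (SE 0.17, unadjusted p = 0.00153, edgeR adjusted p = 0.417) and -0.04 for CKAP2. The estimate of CKAP2 turned to 0.02 with scaling by total counts, 0.09 without vehicle replicate 4 and 0.01 without irradiated replicate 3 of batch 2. The batches differ in replicates, libraries and what the labels say of the vehicle, and these cannot be told apart. Within batch 1, t1 and t2 gave different sizes. From the t1 libraries alone the difference passed for 2 of 10 genes, DLGAP5 at -0.93 (adjusted p = 0.0262) and ASPM at -1.0 (adjusted p = 0.0229). CKAP2 turned to 0.12 there. From the t2 libraries alone the difference lay between -0.58 for PSRC1 and 0.51 for ASPM and passed for none. TPX2 (0.27) and PRR11 (0.21) turned as well. For ASPM, TPX2 and PRR11 the estimated fall was thus larger in batch 1 from t1 and not from t2. Over all genes tested, 452 passed for this difference from t1 alone and 5646 from t2 alone, against 31 with all libraries. The calls among the 10 genes from t1 or t2 alone are to be read against those counts.

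ASPM showed the widest gap between t1 and t2. It stood at 61.7 and 69.9 CPM in the t1 libraries and 40.2 and 40.7 CPM in the t2 libraries of mock cells. After IR the t1 libraries stood at 21.3 and 16.5 CPM and the t2 libraries at 28.8 and 35.7 CPM. The groups did not overlap within either kind of library, but the log2 fold change was -1.78 (adjusted p = 6.58e-07) from t1 and -0.30 (adjusted p = 0.0783) from t2. TPX2 changed by -1.18 from t1 and -0.51 from t2, and DLGAP5 by -1.97 and -1.32. PSRC1 went the other way, at -0.98 from t1 and -1.58 from t2, as did CKAP2, at -0.35 (adjusted p = 0.117) and -0.67 (adjusted p = 0.000525). In mock cells the mean of t2 was below that of t1 for 8 of the 10 genes, and above it for PSRC1 and CKAP2. After IR the mean of t2 was below that of t1 for HMMR, PSRC1 and CKAP2, and above it for the other genes. No share over all genes was computed for this.

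Per length of gene, taken as the annotated span in RefSeq, the mean levels lay between 0.863 (ASPM) and 3.79 (PSRC1) CPM per kb in mock cells of batch 1 and between 1.24 (PRR11) and 3.12 (PRC1) CPM per kb with vehicle. After IR they lay between 0.329 (DLGAP5) and 1.6 (CKAP2) in batch 1 and between 0.586 (PRR11) and 2.13 (NUSAP1) with vehicle. In vehicle cells the order from the top was PRC1, NUSAP1, PSRC1, HMMR, TPX2, ANLN, CKAP2, DLGAP5, ASPM and PRR11. The replicate ranges of 5 of the 9 neighbouring pairs overlapped, namely NUSAP1 with PSRC1, TPX2 with ANLN, ANLN with CKAP2, DLGAP5 with ASPM and ASPM with PRR11. In mock cells of batch 1 they overlapped for 3 of 9 pairs. PSRC1 spans 3.6 kb and ANLN 63.9 kb, and whether reads of polymerases paused near the start were counted is not given in the sources used here.

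Many of these genes start beside, or overlap, another gene, which allows a comparison at the same place in the genome. HMMR starts 530 bases from NUDCD2 on the other strand, NUSAP1 290 bases from OIP5, CKAP2 132 bases from the noncoding CKAP2-DT, PRR11 560 bases from SKA2, and ANLN 495 bases from MATCAP2, which it overlaps by 496 bases. OIP5 serves the centromere and SKA2 the attachment of kinetochores to microtubules. Over both batches SKA2 fell by 0.35 on the log2 scale (edgeR adjusted p = 0.00404), OIP5 by 0.36 (0.0364), NUDCD2 by 0.33 (0.0256) and CKAP2-DT by 0.85 (0.0163). MATCAP2, at -0.03 (0.917), did not pass. CKAP2-DT had few reads in batch 2, at 0.891 to 2.03 CPM. Each of the 4 calls was lost on leaving out 1 sample. Without irradiated replicate 2 of batch 1 the adjusted p became 0.0663 for SKA2, 0.253 for OIP5, 0.216 for NUDCD2 and 0.138 for CKAP2-DT. OIP5 and NUDCD2 were also lost without mock replicate 1 (0.0663 and 0.117) or several other samples, and CKAP2-DT without mock replicate 1 (0.106). Changes of method also ended calls, that of NUDCD2 with the size factors of DESeq2 (0.0585), with no filter (0.129) and with DESeq2 (0.0622), and that of OIP5 with DESeq2 (0.0539). From t1 alone OIP5 stood at -0.14 (0.594), CKAP2-DT at -0.42 (0.394) and NUDCD2 at -0.36 (0.0827). From t2 alone the calls of SKA2 (0.126), OIP5 (0.0772) and NUDCD2 (0.149) were lost. PRC1-AS1, which overlaps 22256 bases of PRC1 on the other strand, stood at 0.04 (0.869), and PRC1 itself at -0.74. Without knowledge of strand in the counting, reads of overlapping genes cannot be told apart, and the values of PRC1 and PRC1-AS1, and likewise those of ANLN and MATCAP2 and the ratio between them, are uncertain for that reason. SEPTIN14P12, a pseudogene that overlaps 760 bases of ASPM, stood at -0.49 (0.551) with at most 1.52 CPM. HMMR-AS1 and SPDYE22P had too few counts to be tested.

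**Figure D4:**
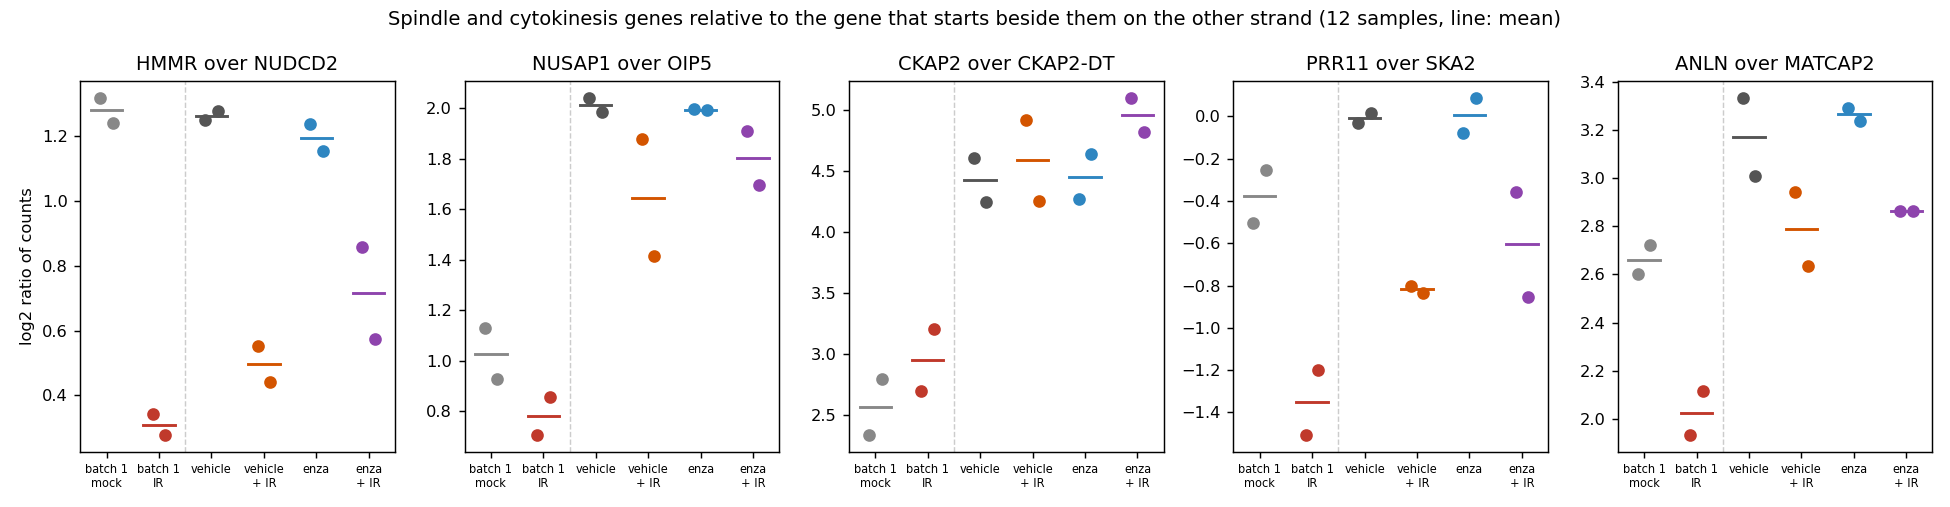
Log2 ratio of the counts of each gene to those of the gene that starts beside it on the other strand, in each of 12 samples (line, mean of 2 replicates; each panel has a vertical axis of its own that does not start at 0). The irradiated samples lie below the unirradiated ones of the same setting for HMMR, NUSAP1, PRR11 and ANLN, and not for CKAP2.

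The ratio of a gene to its neighbour within a sample does not depend on the scaling between libraries. The log2 ratio of HMMR to NUDCD2 fell by 0.74 after IR (mean over the 3 settings), that of PRR11 to SKA2 by 0.80, that of ANLN to MATCAP2 by 0.47 and that of NUSAP1 to OIP5 by 0.27. In each of these 4 pairs the irradiated and unirradiated samples did not overlap in any of the 3 settings. For NUSAP1 over OIP5 the gap was narrow. The nearest unirradiated and irradiated samples stood at 0.93 and 0.85 in batch 1, and at 1.99 and 1.91 with enzalutamide. No share over all genes was computed for such ratios. The ratio of CKAP2 to CKAP2-DT was higher after IR by 0.35, with overlapping samples in batch 1 and with vehicle. It rests on few counts of CKAP2-DT, 60 to 74 per sample in batch 1 and 11 to 40 in batch 2. All 5 ratios were computed after the fold changes had been seen and restate them without scaling, so they are given as a description with no test. In the vehicle samples of PRR11 and SKA2, the 2 genes had nearly equal counts before IR, with a log2 ratio of -0.03 and 0.01, and after IR of -0.80 and -0.83.

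Other genes of mitosis, grouped in lists written from general knowledge, were tested in the same fits. These lists, and those further below, were chosen with earlier results of these data known, so their counts are a description. Over all genes of the fit over both batches, 1.66% passed lower and 2.39% higher. In it 10 of 13 mitotic kinesins passed lower and 0 higher (median -0.57). CENPE, which carries chromosomes to the spindle equator, fell by 1.23 on the log2 scale, KIF20A by 1.16, KIF23 by 0.89, KIF14 by 0.87 and KIF11, the motor that separates the poles, by 0.48. The call of KIF11 was lost from the t1 libraries of batch 1 alone (adjusted p = 0.0564). KIF15 stood at -0.16 and did not pass. Of 10 mitotic kinases, 9 passed lower (median -0.85). Among them AURKA, the partner of TPX2, fell by 1.47, PLK1 by 1.25, BUB1 by 1.17, TTK by 0.82, BUB1B by 0.67 and CDK1 by 0.43. The calls of TTK and BUB1B were lost from the t2 libraries alone (adjusted p = 0.0604 and 0.0661). By these medians the kinases stood close to the 10 spindle genes, whose median in the same fit was -0.89, against -0.02 for all genes tested.

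Further spindle assembly and microtubule proteins gave 5 lower and 0 higher calls of 24 tested, with a median of -0.06. GTSE1 fell by 0.94 on the log2 scale, CKAP2L by 0.77, KNSTRN by 0.65 and FAM83D by 0.58. CKAP5, named here outside the naming rule, fell by 0.37, and its call was lost without mock replicate 2 or either irradiated sample of batch 1 (adjusted p 0.0581, 0.0861 and 0.0607), and from t2 alone (-0.19, adjusted p = 0.255). RCC1 (0.17) and NUMA1 (-0.08), the members of that list with the most reads, did not pass. Of 19 further cytokinesis genes, 4 passed lower and 1 higher, with a median of 0.02. RACGAP1 fell by 0.82, ECT2 by 0.80, CEP55 by 0.65 and SHCBP1 by 0.40. The call of SHCBP1 was lost from t2 alone (adjusted p = 0.117). SEPTIN9 rose by 0.41, a call lost from t1 alone (0.26, adjusted p = 0.277), and MYH9, at 0.06, did not pass. The tubulins themselves gave 1 lower call of 9 tested, TUBA1C at -0.45, with a median of 0.0013. TUBA1A (-0.33), TUBB4B (-0.27), TUBB6 (0.28) and TUBA1B (0.0013) did not pass, although TUBB4B did with the replicate block (adjusted p = 0.0163).

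**Figure D5:**
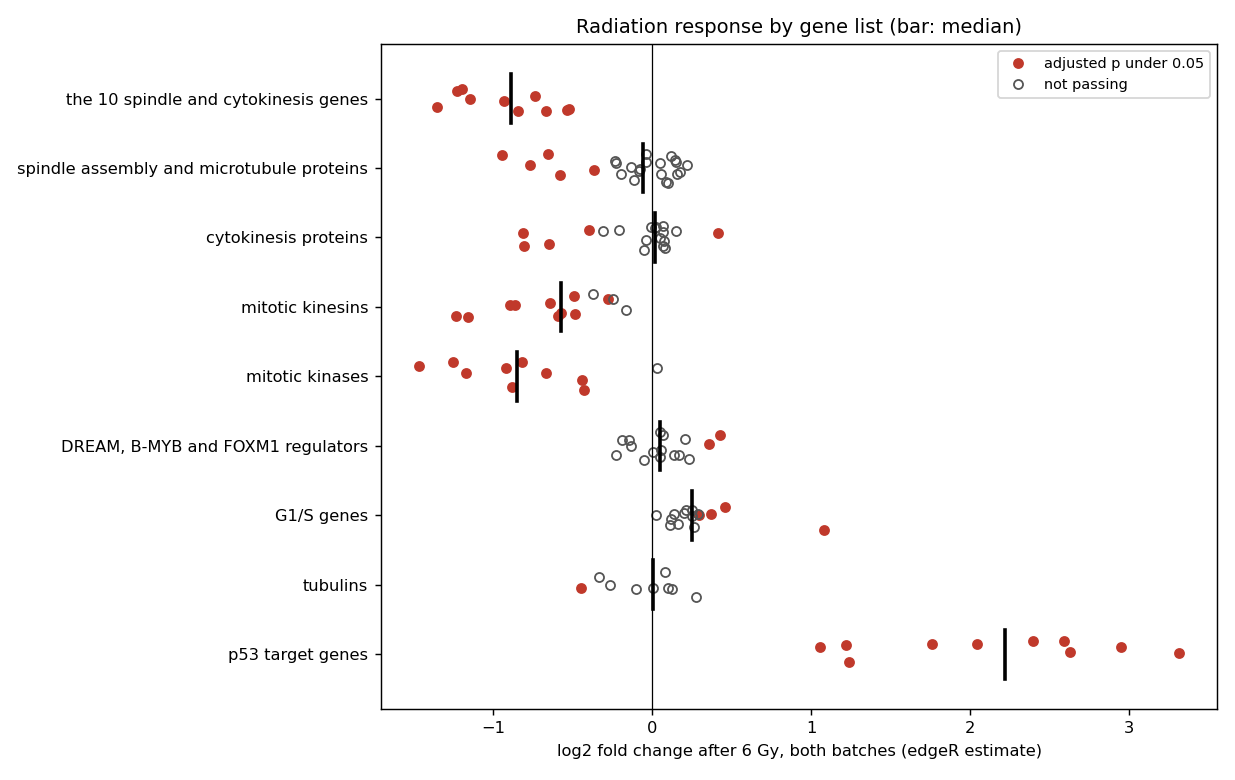
Log2 fold change after 6 Gy over both batches for each gene of 9 lists (horizontal axis, edgeR estimate; filled points passed at an adjusted p under 0.05; vertical bars, medians). The 10 spindle and cytokinesis genes lie between -1.35 and -0.52 with a median of -0.89, near the mitotic kinases, and the p53 target genes lie above 1.

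Few of the regulators named in the background passed. Of 16 genes for DREAM subunits, B-MYB, FOXM1 and NF-Y, 0 passed lower and 2 higher, with a median of 0.05. RBL2, which encodes the pocket protein p130 of DREAM, rose by 0.43 on the log2 scale, a call lost without mock replicate 1 of batch 1 (adjusted p = 0.0561). It stood at 0.21 (0.348) from the t1 libraries of batch 1 alone and at 0.64 (0.0606) from t2 alone. MYBL2, which encodes B-MYB, rose by 0.35, a call lost from t1 alone (0.26, adjusted p = 0.235). FOXM1, named here outside the naming rule, stood at -0.19 and did not pass (edgeR adjusted p = 0.223). Its values under the alternatives are not given. E2F5 (-0.23), RBBP4 (0.21) and RBL1 (0.17) did not pass, although RBBP4 did with the replicate block (0.0305) and from t2 alone (0.0492). Of 15 genes for the G1/S transition, 0 passed lower and 4 higher, with a median of 0.25. TYMS rose by 1.08, E2F1 by 0.46, CDT1 by 0.37 and MCM5 by 0.29. The calls of CDT1 and MCM5 were each lost without any one of 5 of the 8 samples (adjusted p 0.0657 to 0.145 and 0.0513 to 0.178). From t2 alone CDT1 stood at 0.20 (0.436) and MCM5 at 0.36 (0.106), MCM5 was also lost from t1 alone (0.242), and CDT1 with scaling by total counts (0.0506). RRM2 (0.12) and POLA1 (0.16) did not pass. All 10 genes of a list of p53 targets passed higher, with a median of 2.22, among them CDKN1A at 3.32 and MDM2 at 2.59, and also FDXR, BTG2 and BBC3. In the 4 comparisons of enzalutamide (without IR, with IR, averaged and the interaction), no gene of the 8 lists passed.

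Among 15934 other genes with a symbol and a mean of at least 50 counts, the 10 whose profile was most like the mean of the spindle genes were TOP2A, CDCA8, PLK1, CCNB1, UBE2C, CDCA2, FAM72C, KPNA2, AURKA and CKAP2L. Likeness was Pearson's r of log2 CPM centred within each batch over 12 samples, and ran from 0.995 for TOP2A to 0.987 for CKAP2L, against a median of -0.14 over the genes ranked. The 10 spindle genes themselves had an r of 0.948 (PSRC1) to 0.989 (DLGAP5) with the mean of the other 9. Irradiated and unirradiated samples form separate clusters in these profiles, so r mainly gives how evenly a gene followed that split. FAM72C has near-identical copies in the genome and its counts are uncertain.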

How the data were processed

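PRO-seq reads of 16 libraries were counted per Ensembl gene identifier by the authors, who deposited 1 table of whole-number counts per batch. Per the submitters' processing notes, the genome build was hg38 and the tools were cutadapt 1.8.1, Bowtie2 2.4.4 and SAMtools 1.9. The counting tool, annotation release, use of strand and removal of duplicates are not given in the sources used here. Gene names matched 60463 of 60605 identifiers.

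The 2 libraries of a replicate number in batch 1 were summed, which left 12 samples. Genes were kept by filterByExpr, scaled by TMM and tested two-sided with edgeR 4.0.16 (quasi-likelihood) in R 4.3.3, with Benjamini-Hochberg adjustment over all genes tested and a threshold of 0.05. Batch 2 was fitted as IR, enzalutamide and their interaction over all 8 samples, and the average effect of enzalutamide without the interaction term. CPM are TMM-scaled over the 12 samples. The SE of a log2 fold change is its size over the square root of F. DESeq2 1.42.0, other scaling, no filter, the replicate block and leaving out samples were alternatives. The steps were run on simulated counts for comparisons of IR only. Those counts had the same spread for every gene and no effect of batch, replicate number or t1 and t2. The simulation therefore does not cover these features of the data, nor the comparisons of enzalutamide and the interaction.

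Groups share replicate numbers in the labels. Same-numbered samples deviated together, with correlations across genes of 0.102 to 0.262 over 6 pairs of groups in batch 2 and 0.198 for the 1 pair in batch 1, so the numbers may pair the samples. The tests reported carry no block unless stated, and the value with the replicate block is given beside a result where it changes the call.

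The 10 genes and the other lists were chosen with earlier results of these data known. Named genes are the 10, their overlapping or adjacent genes, and in each list the 4 with the smallest p for IR over both batches and the 2 with the most reads. A further 2 genes were left out of the lists and are not reported here. Sequences and coordinates are from RefSeq on GRCh38.p14.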

Additional observations from a re-analysis of the deposited data

How the results depend on the processing

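The falls after IR kept their direction in every alternative tried for the 10 genes in the 4 IR comparisons (other scaling, no filter on low counts, DESeq2, the replicate block, each sample left out, t1 or t2 alone, and only the compared groups). In the fit over both batches the call held in 150 of 150 cases. In batch 1 it held in 105 and was lost in 5, which are CKAP2 in 4 (DESeq2 gave adjusted p = 0.054) and ASPM from t2 in 1. With vehicle the outcome, passing or not, stayed the same in 118 cases, while 12 calls were gained and 10 lost. With enzalutamide it stayed the same in 125, while 1 call was gained and 14 were lost. The unchanged cases include some of CKAP2 in both settings and of ANLN with vehicle, which did not pass in the main fit. The number of these genes called on leaving out 1 sample ran from 4 to 10 with vehicle and from 5 to 9 with enzalutamide. With the replicate block all 10 were called in each setting, and it changed no other call of theirs. The block also raised the number called over all genes in each setting. Counts over all genes, with the block and on leaving out 1 sample, follow in the next paragraph.

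Counts over all genes tested moved more. The replicate block raised them to 2332 in batch 1 (731 without it), 1315 with vehicle (314), 951 for IR with enzalutamide (263), 1954 over both batches (1182), 272 for enzalutamide averaged over IR (18), 55 without and 55 with IR (3 each), 96 for the difference between batches (31) and 1 for the interaction (0). Without the filter they were 1157, 624, 556, 230, 74, 64, 119 and 32 for batch 1, vehicle, enzalutamide, the average, without IR, with IR, the difference and the interaction. DESeq2 gave 58 for the average, 13 without IR and 7 with IR, and a fit of the 2 groups alone gave 7 with IR. From t1 alone they were 3995 in batch 1 and 452 for the difference, with 2 of the 10 spindle genes called, and from t2 alone 9800, 5646 and, over both batches, 657. On leaving out 1 sample they ran from 587 to 1509 in batch 1, 161 to 511 with vehicle, 139 to 434 for IR with enzalutamide, 897 to 1208 over both batches, 21 to 45 for the difference, 7 to 36 for the average, 2 to 10 for the drug in unirradiated cells, 1 to 6 in irradiated cells and 0 to 4 for the interaction. The cause of these shifts was not tested.

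Genes that did not pass changed sign as follows. From t1 alone MYH9 stood at -0.067, RBBP4 at -0.027, RBL1 at -0.039, RRM2 at -0.027, POLA1 at -0.11, TUBB4B at 0.043, PRC1-AS1 at -0.32 and MATCAP2 at 0.066. From t2 alone NUMA1 stood at 0.10 and TUBA1B at -0.14, with total counts TUBA1B at -0.0020, and with no filter MATCAP2 at 0.011. On leaving out 1 sample RRM2 ran from -0.031 to 0.24, TUBA1B from -0.076 to 0.14, PRC1-AS1 from -0.033 to 0.10 and MATCAP2 from -0.072 to 0.027.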
